A study of Mus musculus with 4 samples.

Results

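Strain-enriched H3K4me3 and H3K27ac regions were examined in the large zinc-finger gene clusters of mouse chromosomes 2, 4 and 13. A region was taken as a member when its midpoint lay in chr2:174500000-178500000, chr4:145000000-148000000 or chr13:61000000-68500000 of mm10, whatever its signal. This rule gave 434 members among the 31312 regions listed on chromosomes 1 to 19, X and Y. There were 86 members on chromosome 2, 145 on chromosome 4 and 203 on chromosome 13. By list, 187 members were H3K4me3 regions enriched in NOD cells, 69 were H3K4me3 regions enriched in B6 cells, 119 were NOD H3K27ac regions and 59 were B6 H3K27ac regions. No member was left out for a low value.

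The cells were embryonic stem (ES) cells from embryos of the non-obese diabetic mouse (NOD) and of C57BL/6 mice (B6), the non-diabetic comparison strain. All cells were grown in 2i, a culture with inhibitors of MEK and GSK3 that holds ES cells in a naive state. The labels name neither the line nor the number of embryos behind a library. H3K4me3, trimethylation of lysine 4 on histone H3, marks promoters. H3K27ac, acetylation of lysine 27 on the same histone, marks active promoters and enhancers. Each strain and mark was read in 1 library, so no value below has a replicate, and every interval or lower bound covers counting error only. Intervals of shares and densities treat regions or genes as independent, although neighbors in a cluster can share sequence. The H3K4me3 libraries held 14791364 tags (mapped reads) in B6 and 22750449 tags in NOD. For H3K27ac the depth is unknown. Each list was called against the library of the other strain, so a gene without a region may be unmarked or marked alike in both strains. No input library was analysed here, and the mm10 reference is a C57BL/6J assembly, so that more copies of a sequence in NOD DNA and more mark on each copy cannot be told apart.

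C2H2 zinc-finger proteins bind DNA through a tandem array of zinc-binding fingers, and in many of them a KRAB domain recruits Trim28 (KAP1) with the histone methyltransferase Setdb1 and the HP1 (Cbx) proteins. These proteins are known for silencing endogenous retroviruses and other retroelements in ES cells. Their genes lie in clusters that grew by tandem duplication, so neighboring genes can be near-identical, and gene content differs between mouse strains.

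Nearness of the copies was read from the 250 bases upstream of the gene starts in the RefSeq sequence of GRCm38.p6, the same build as mm10. Start sequences were matched for 87 zinc-finger genes of the clusters, with 98 starts in all. Below, capitals mark bases covered by at least 1 stretch of 50 bases, the length of a read, that occurs once in the genome on either strand. Lower case marks bases that no such unique 50-mer covers. The first 3 sequences come from chromosome 2 and show a start shared by several genes, a start with the same property but a large NOD region, and a start that differs from the rest. Gm4724 (chr2:175435778-175436027, minus strand), Zfp970 (chr2:177464492-177464741, plus strand) and Gm14393 (chr2:175067770-175068019, minus strand) read as follows.
Gm4724: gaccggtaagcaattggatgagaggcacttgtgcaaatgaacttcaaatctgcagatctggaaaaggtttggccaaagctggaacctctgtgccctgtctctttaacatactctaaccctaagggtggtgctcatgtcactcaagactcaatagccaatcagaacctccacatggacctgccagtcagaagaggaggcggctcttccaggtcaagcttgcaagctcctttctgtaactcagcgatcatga
Zfp970: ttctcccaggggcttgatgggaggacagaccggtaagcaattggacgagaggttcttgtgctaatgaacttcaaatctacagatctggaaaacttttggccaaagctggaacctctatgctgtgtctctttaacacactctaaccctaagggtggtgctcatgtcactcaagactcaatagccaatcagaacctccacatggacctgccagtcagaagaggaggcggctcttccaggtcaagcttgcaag
Gm14393: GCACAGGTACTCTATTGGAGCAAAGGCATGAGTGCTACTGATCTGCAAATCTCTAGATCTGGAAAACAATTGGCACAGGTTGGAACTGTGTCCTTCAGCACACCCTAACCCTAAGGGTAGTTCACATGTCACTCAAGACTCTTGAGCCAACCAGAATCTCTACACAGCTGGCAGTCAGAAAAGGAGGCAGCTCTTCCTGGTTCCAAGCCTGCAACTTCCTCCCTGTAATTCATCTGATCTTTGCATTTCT
The next 4 come from chromosome 4 and show a near-identical pair and 2 starts of 1 gene that were enriched in opposite strains. They are Rex2 (chr4:147021600-147021849, plus strand), Zfp600 (chr4:146156577-146156826, plus strand) and Zfp982 at its start beside a B6 H3K4me3 region (chr4:147442864-147443113, plus strand) and beside a NOD H3K4me3 region (chr4:147492167-147492416, plus strand).
Rex2: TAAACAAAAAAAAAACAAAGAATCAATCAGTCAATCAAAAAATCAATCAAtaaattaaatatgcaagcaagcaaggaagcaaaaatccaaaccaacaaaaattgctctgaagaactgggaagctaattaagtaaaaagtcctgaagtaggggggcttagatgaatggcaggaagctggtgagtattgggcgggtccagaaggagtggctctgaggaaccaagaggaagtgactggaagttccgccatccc
Zfp600: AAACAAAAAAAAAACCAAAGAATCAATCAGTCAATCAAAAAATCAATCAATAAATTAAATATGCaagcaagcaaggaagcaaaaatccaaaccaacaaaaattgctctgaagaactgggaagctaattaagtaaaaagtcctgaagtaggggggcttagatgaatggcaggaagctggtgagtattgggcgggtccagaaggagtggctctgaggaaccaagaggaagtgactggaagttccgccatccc
Zfp982 at the B6 region: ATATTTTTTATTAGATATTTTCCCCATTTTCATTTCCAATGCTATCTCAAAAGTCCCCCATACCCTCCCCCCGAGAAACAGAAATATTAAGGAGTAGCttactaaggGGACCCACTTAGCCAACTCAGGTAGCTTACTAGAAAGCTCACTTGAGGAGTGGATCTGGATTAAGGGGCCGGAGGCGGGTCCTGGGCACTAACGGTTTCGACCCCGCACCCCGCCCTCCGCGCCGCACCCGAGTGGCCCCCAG
Zfp982 at the NOD region: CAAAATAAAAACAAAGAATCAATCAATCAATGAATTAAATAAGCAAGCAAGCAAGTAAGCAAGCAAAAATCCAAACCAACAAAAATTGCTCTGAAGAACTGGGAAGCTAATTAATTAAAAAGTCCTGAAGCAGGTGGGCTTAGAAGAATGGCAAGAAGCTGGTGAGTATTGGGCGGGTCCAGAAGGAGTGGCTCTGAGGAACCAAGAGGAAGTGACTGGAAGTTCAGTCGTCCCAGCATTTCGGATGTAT
The last 2 come from chromosome 13, where fewer starts were near-identical, and both lie beside B6 H3K4me3 regions. They are Zfp759 (chr13:67127978-67128227, plus strand) and Zfp874a (chr13:67451625-67451874, minus strand).
Zfp759: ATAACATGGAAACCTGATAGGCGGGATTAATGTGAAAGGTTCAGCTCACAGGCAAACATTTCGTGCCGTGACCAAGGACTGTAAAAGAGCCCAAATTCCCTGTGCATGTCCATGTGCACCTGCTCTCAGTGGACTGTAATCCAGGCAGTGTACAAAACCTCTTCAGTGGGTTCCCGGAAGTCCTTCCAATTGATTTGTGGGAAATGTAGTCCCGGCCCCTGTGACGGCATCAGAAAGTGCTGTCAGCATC
Zfp874a: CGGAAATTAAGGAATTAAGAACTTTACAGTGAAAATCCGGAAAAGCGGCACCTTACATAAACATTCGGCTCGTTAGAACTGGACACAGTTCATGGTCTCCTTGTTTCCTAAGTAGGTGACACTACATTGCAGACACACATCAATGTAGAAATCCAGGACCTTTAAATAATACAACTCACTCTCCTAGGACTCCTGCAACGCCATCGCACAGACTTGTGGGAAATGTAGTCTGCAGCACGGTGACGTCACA

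The start of Gm4724 was identical over 250 bases to those of Gm2026, Gm14434 and Gm14308. The start of Zfp970 matched that of Zfp966 at 243 of 255 aligned columns (95.3%). Neither held a unique 50-mer, and Gm14393, with all bases in unique 50-mers, was 72.4% identical to its closest relative, Gm4724. On chromosome 4, Rex2 and Zfp600 matched at 249 of 251 columns (99.2%), and unique 50-mers covered 20% and 25.6% of their bases. The NOD-side start of Zfp982 was 87.3% identical to Zfp987 and held 3 CG dinucleotides, whereas the B6-side start was at most 50.9% identical to any other start and held 11. Zfp759 was 74.4% identical to Zfp457 and Zfp874a was 76.2% identical to Zfp874b, with every base in a unique 50-mer. Among pairs of starts on chromosome 2, 61 of 561 were at least 90% identical, against 3 of 136 on chromosome 4 and 6 of 1081 on chromosome 13. No pair of the 2975 between chromosomes reached that level.

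The first question was whether the clusters leaned toward NOD more than the genome did. Of all listed H3K4me3 regions, 61.4% were enriched in NOD, and of all H3K27ac regions 52.6%. On chromosome 2 the H3K4me3 counts were 57 for NOD and 1 for B6, which made NOD 98.3% (95% Wilson interval 90.9 to 99.7). On chromosome 4 the counts were 79 and 24, or 76.7% (67.7 to 83.8). Both intervals lay above the share of 61.3% (60.6 to 62.0) outside the clusters and above the shares of 64.5% and 62.7% on the rest of the same chromosomes. These intervals count each region as independent. Along the chromosome, though, the longest unbroken NOD run had 57 regions on chromosome 2 and 31 on chromosome 4. On chromosome 13, 51 NOD and 44 B6 regions gave 53.7% (43.7 to 63.4), an interval that held the outside share. Among regions with at least 8-fold more tags, chromosome 13 had 16 in NOD and 31 in B6, where the rest of the genome had 3281 and 4070.

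With H3K27ac, chromosome 2 had 25 NOD and 3 B6 regions, 89.3% NOD (72.8 to 96.3). The share was 64.3% (49.2 to 77.0) on chromosome 4 from 27 and 15 regions, and 62.0% (52.6 to 70.6) on chromosome 13 from 67 and 41 regions. The share outside the clusters was 52.4% (51.4 to 53.3), so the chromosome 2 interval lay above it, the chromosome 4 interval held it, and the lower end of the chromosome 13 interval lay within its interval. Pooled over the 3 clusters, NOD made up 73.0% (67.3 to 78.1) of H3K4me3 regions and 66.9% (59.6 to 73.3) of H3K27ac regions.

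Both strains nevertheless had more regions per megabase in the clusters than elsewhere. The clusters span 14.5 Mb, or 0.532% of the genome. Lengths include assembly gaps, which made up 11.3%, 14.4% and 0% of the clusters on chromosomes 2, 4 and 13, and 2.84% outside. Relative to the rest of the genome, regions were 2.94 times as dense for NOD H3K4me3 (95% interval 2.53 to 3.40), 1.72 times for B6 H3K4me3 (1.33 to 2.18), 3.70 times for NOD H3K27ac (3.06 to 4.44) and 2.02 times for B6 H3K27ac (1.53 to 2.61). The exception was chromosome 2 in B6, where the ratio was 0.09 for H3K4me3 and 0.372 for H3K27ac. The highest ratio for H3K4me3 was 6.00, for NOD on chromosome 4. In terms of covered length the NOD excess was larger, since 473.6 kb of the clusters were in NOD H3K27ac regions and 123.9 kb in B6 H3K27ac regions, or 10.7 and 3.11 times the outside cover. The clusters also held 13 of the 100 NOD H3K4me3 regions with the most tags and 11 of the 100 NOD H3K27ac regions with the highest score, against 7 and 5 in the B6 lists.

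NOD regions were not spread evenly along the clusters. On chromosome 2, 51 of the 57 NOD H3K4me3 regions and 21 of the 25 NOD H3K27ac regions lay in chr2:177000000-178000000, which held no B6 region. In the same cluster, chr2:175250000-176500000 held no region of any list, although 12 C2H2 genes lie there. Assembly gaps, which can hold no read, made up 0.279%, 39.7%, 2.64%, 37.4% and 40% of its 250 kb bins. In the NOD-rich stretch, 1 bin (chr2:177500000-177750000) was also 40% gap. In that stretch no unique 50-mer was found at steps of 100 bp, while unique 50-mers made up 20.1% to 23.8% of the 250 kb bins of the NOD-rich stretch. On chromosome 4, chr4:145250000-145750000 held 31 NOD and 1 B6 H3K4me3 regions. Further along, chr4:147250000-147500000 held 11 NOD and 11 B6 regions, so that 1 bin of 250 kb had 11 of the 24 B6 regions of the cluster.

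On chromosome 13 regions of both strains lay in most stretches. The first bin, chr13:61000000-61250000, held 2 NOD H3K4me3 regions and 1 NOD H3K27ac region. The next stretch, chr13:61250000-62000000, held 1 NOD and 11 B6 H3K4me3 regions together with 2 NOD and 7 B6 H3K27ac regions. After it, chr13:62000000-62750000 held 6 NOD and 1 B6 H3K4me3 regions and 16 NOD and 2 B6 H3K27ac regions. The middle, chr13:62750000-65250000, has 1 C2H2 gene and held 10 H3K4me3 regions of each strain and 5 NOD against 17 B6 H3K27ac regions. The repetitive stretch chr13:65250000-66750000 had 19 NOD and 10 B6 H3K4me3 regions and 31 NOD and 6 B6 H3K27ac regions. Beyond it, chr13:66750000-68000000 holds 26 C2H2 genes and had 13 NOD and 12 B6 H3K4me3 regions. These stretches were chosen after their values were seen.

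The order of neighboring H3K4me3 regions could be read on chromosomes 4 and 13, since chromosome 2 had 1 B6 region. Distances were taken between region midpoints. On chromosome 4 the strain changed at 26 of 102 pairs, and 10 changes were within 5 kb. The longest NOD run there had 31 regions and the longest B6 run 6. On chromosome 13 it changed at 36 of 94 pairs, and no run was longer than 6 NOD or 8 B6 regions. The closest midpoints of a NOD and a B6 region were 0.452 kb apart on chromosome 4 and 0.518 kb apart on chromosome 13. The first distance is less than the peak size of 500 bp.

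**Figure D1:**
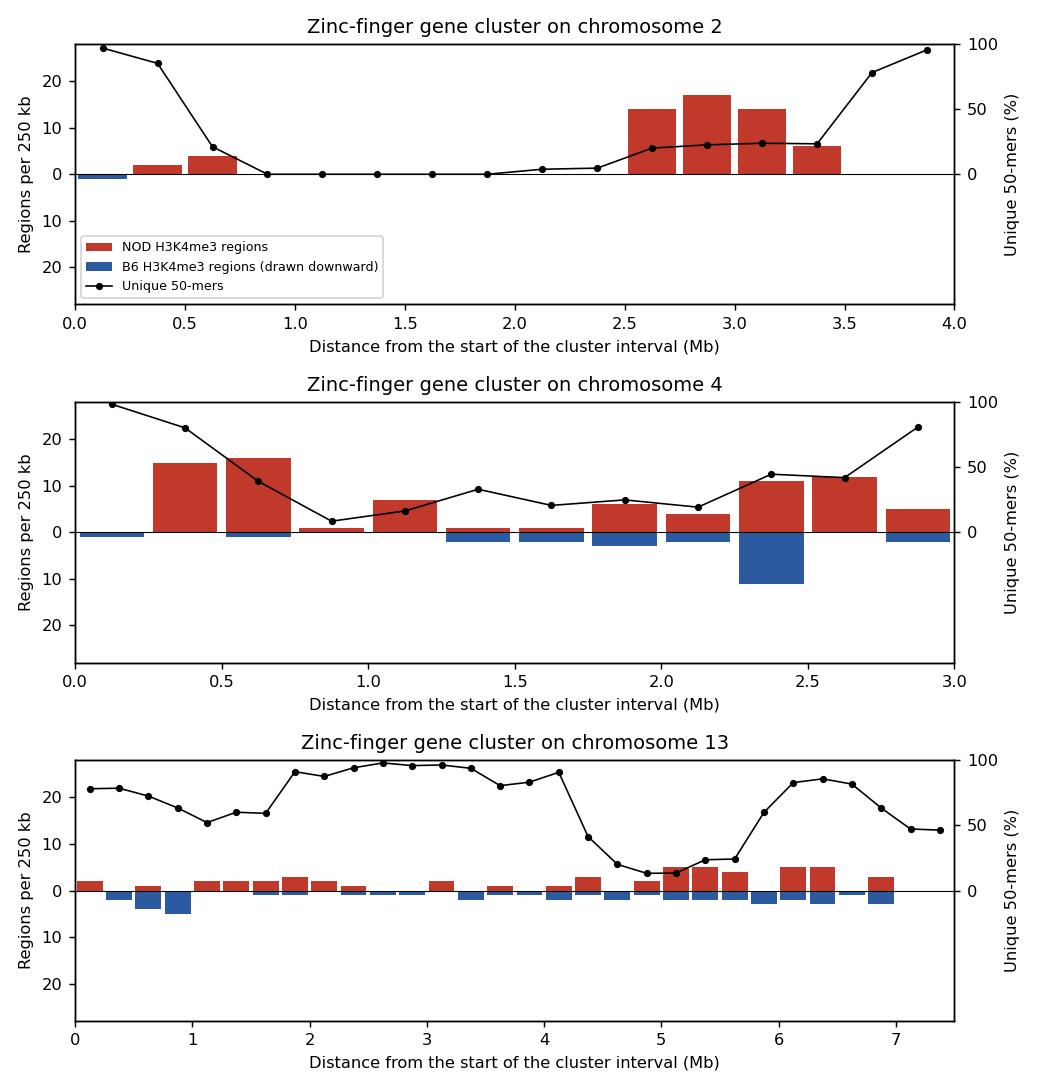
H3K4me3 regions per 250 kb bin along each cluster (left axis; x axis, distance from the start of the interval in Mb), with NOD regions drawn upward, B6 regions drawn downward and the percent of unique 50-mers in each bin as a black line (right axis). Most NOD regions of chromosome 2 sit in 1 block of 4 bins with 14, 17, 14 and 6 regions, the earlier stretch where the black line is at 0 has none, and both strains appear along chromosome 13.

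Since reads of 50 bp were mapped, the share of unique 50-mers was taken within each region. It was 68.0% over NOD H3K4me3 members, 72.8% over B6 H3K4me3 members, 40.1% over NOD H3K27ac members and 71.1% over B6 H3K27ac members. Outside the clusters the same lists had 96.4%, 94.1%, 91.1% and 94.7%. Members were thus more repetitive than other listed regions, and NOD H3K27ac members the most so of the 4 lists. Of the 50-mers that were not unique, another copy lay in the same cluster for 92.3%, 85.0%, 93.5% and 92.2%, in the same order. Over the whole clusters on chromosomes 2, 4 and 13, unique 50-mers made up 32.7%, 45.8% and 66.0%. NOD H3K4me3 members were less repetitive than that, at 60.5%, 75.6% and 68.8%, whereas NOD H3K27ac members were more repetitive on chromosome 2 (24.2%) and chromosome 13 (41.4%).

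The NOD share was then taken by uniqueness within each cluster. For H3K4me3 it hardly moved inside a cluster. On chromosome 4 the share was 81.3% (57.0 to 93.4) among regions with under 50% unique 50-mers, 76.3% between 50% and 90%, and 75.0% (56.6 to 87.3) at 90% or above. On chromosome 13 it was 54.5% (34.7 to 73.1), 51.4% and 55.3% (39.7 to 69.9). On chromosome 2 all 57 NOD regions had under 90% unique 50-mers, so that its share in unique sequence could not be read. Pooled over the clusters the share went from 79.0% (67.4 to 87.3) in the least unique class to 62.7% (50.7 to 73.3) in the most unique class, which holds 1 region of chromosome 2, and chromosomes 4 and 13 did not show that fall when taken alone.

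For H3K27ac the share differed between classes within chromosome 13. Regions there with under 50% unique 50-mers numbered 26 in NOD and 1 in B6, 96.3% NOD (81.7 to 99.3). Between 50% and 90% they numbered 22 and 15 (59.5%, 43.5 to 73.7), and at 90% or above 19 and 25 (43.2%, 29.7 to 57.8). The interval of the least unique class lay above both others. On chromosome 4 the shares were 55.6%, 68.2% and 63.6% with broad intervals over 9, 22 and 11 regions, and chromosome 2 had no region in the most unique class.

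Outside the clusters the NOD share of H3K4me3 regions was 38.5% (34.1 to 43.1), 57.0% (54.5 to 59.4) and 62.2% (61.5 to 63.0) from the least to the most unique class. Chromosomes 2 and 4 lay above these values in the 2 less unique classes. In the most unique class the intervals of chromosomes 4 and 13 held the outside share. For H3K27ac the outside shares were 71.7%, 67.1% and 50.6%, so they too were lower in unique sequence. The part of read placement among copies in these shares was not tested.

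Stretches without unique 50-mers held almost no region. The 5 bins of 250 kb with under 1% unique 50-mers held 0 regions, the 24 bins with 1% to 50% held 253 regions (42.2 per Mb), and the 29 bins above that held 181 (25.0 per Mb). Of 27 gene starts with no unique 50-mer in the 250 upstream bases, 1 had a region of any list within 1 kb (3.70%, 0.657 to 18.3), and that was Zfp970. Of 47 starts with some unique 50-mers, 27 had one (57.4%, 43.3 to 70.5), in 23 cases from NOD and in 4 from B6. Of 24 starts with unique 50-mers throughout, 7 had one (29.2%, 14.9 to 49.2), 3 from NOD and 4 from B6. On chromosome 2, 24 of the 34 starts held no unique 50-mer, as the Gm4724 sequence above does not, against 2 of 17 on chromosome 4 and 1 of 47 on chromosome 13.

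**Figure D2:**
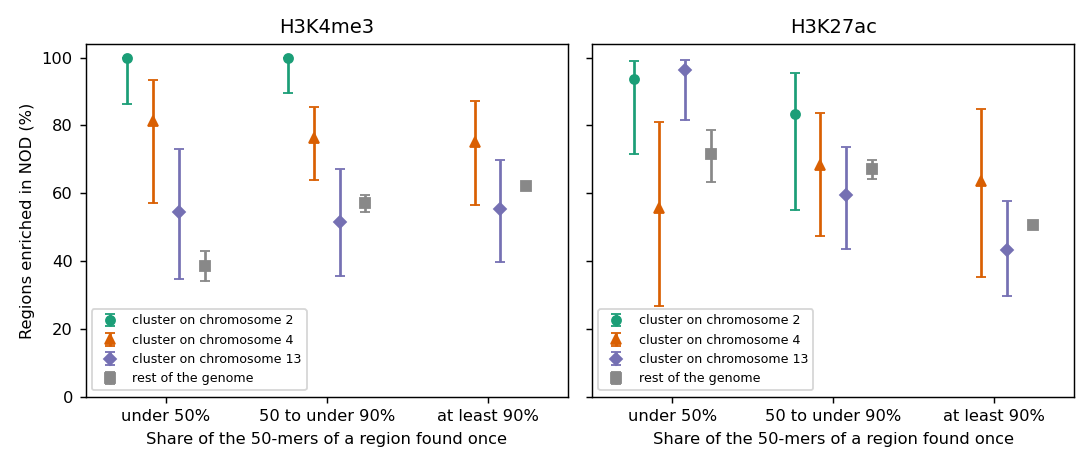
NOD share of H3K4me3 (left) and H3K27ac (right) regions in percent, by the share of the 50-mers of a region found once in the genome, for each cluster and the rest of the genome (gray squares), with 95% Wilson intervals as bars and classes of fewer than 5 regions left out. For H3K4me3 chromosomes 4 and 13 stay level across the classes, and for H3K27ac chromosome 13 goes from 96.3% to 43.2%.

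The members with the most tags were then taken by cluster. Folds below are tags per library total in the enriched strain over the other strain, with an exact 95% interval. The NOD H3K4me3 region with the most tags in the genome was a member, chr4:145431999-145436543, in an intron with the nearest gene start, of the pseudogene Gm13223, at 19.1 kb. It held 3116 NOD tags and 99 B6 tags (20.5-fold, 16.8 to 25.3). The region ranked next in the genome was its neighbor chr4:145408824-145414100 at the start of Gm42346, a C2H2 gene by its coding sequence. It held 2018 NOD tags and 50 B6 tags (26.2-fold, 19.8 to 35.5). Unique 50-mers made up 84.6% and 86.2% of these 2 regions, and the B6 library was not empty in either.

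On chromosome 2 the leading NOD region was chr2:177073077-177077357, 8.49 kb from the start of the pseudogene Gm14407. It held 1561 NOD tags and 223 B6 tags (4.55-fold, 3.95 to 5.26). It was followed by chr2:177317331-177325071, at a start of the long noncoding RNA gene Gm41986 and 7.74 kb wide, with 1464 NOD and 119 B6 tags (8.0-fold, 6.63 to 9.72). Both ranked among the first 5 NOD regions of the genome, in places 3 and 5, and B6 tags were present in both. The median fold of NOD regions was 7.74 on chromosome 2 and 6.04 outside the clusters, with 0 B6 tags set to the floor of 3. The first fold was thus below both medians and the second above both. The single B6 H3K4me3 region of the cluster lay at its edge, in a coding exon of the zinc-finger gene Zfp831 (chr2:174643825-174644325), with 20 B6 tags and 0 NOD tags. Set against a floor of 3 tags it was at least 10.3-fold higher in B6, and the exact 95% lower bound was 7.59.

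On chromosome 13 the highest tag numbers of NOD regions were lower. The leading NOD region, chr13:66588356-66591425 at the starts of Gm45966 and Gm19117, held 459 NOD and 8 B6 tags (37.3-fold, 18.8 to 86.9). The region chr13:65897105-65897605 at Gm17353, a KRAB and C2H2 gene by its coding sequence, held 360 NOD and 37 B6 tags (6.33-fold, 4.50 to 9.13). The B6 regions with the most tags were of a similar level to each other but differed in how many NOD tags they held. Zfp729b, a C2H2 gene, had 207 B6 and 63 NOD tags at chr13:67609223-67610424 (5.05-fold, 3.79 to 6.81). The pseudogene Gm7240 had 205 B6 and 5 NOD tags at chr13:61804115-61805155 (63.1-fold, 26.6 to 196).

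On chromosome 4, B6 regions were led by chr4:147868666-147869826 at the starts of Fv1, a retrovirus restriction gene derived from an endogenous retrovirus, and of Miip, the migration and invasion inhibitory protein. It held 251 B6 and 80 NOD tags (4.83-fold, 3.74 to 6.29), and was wholly unique by 50-mers. The pseudogene Gm13140 followed at chr4:146941891-146943217 with 155 B6 and 9 NOD tags (26.5-fold, 13.6 to 59.0). The 50-mer at the center of the region with the most tags occurred once in the genome for each strain in each of the 3 clusters.

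**Figure D3:**
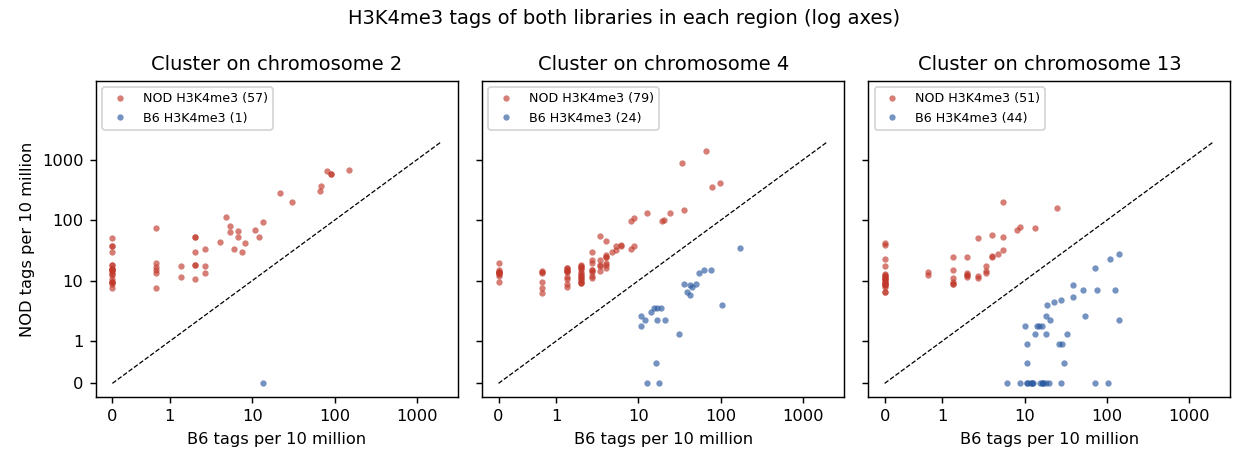
H3K4me3 tags of the B6 (x axis) and NOD (y axis) libraries in every H3K4me3 member, per 10000000 tags of each library, on logarithmic axes. Values of 0 are drawn at a small positive value labelled 0. NOD regions are in red, B6 regions in blue, and a dashed line marks equal level. Regions lie on both sides of the line on chromosomes 4 and 13, and on chromosome 2 a single B6 region lies below it.

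H3K4me3 members were wide more often than their lists as a whole. Of NOD members, 39 (20.9%) were at least 1 kb wide against 6.91% in the whole list, and on chromosome 2 the count was 21 of 57 (36.8%). Of B6 members, 11 (15.9%) were that wide against 2.33%. The median number of own tags was 67 on chromosome 2, 36 on chromosome 4 and 28 on chromosome 13 in NOD, with 30 outside, and 28 over the B6 members, with 20 outside. A fold of at least 8 was reached by 68 NOD members (36.4%) against 27.7% of the list. It was reached by 38 B6 members (55.1%) against 54.2%. That pooled share joined 31 of 44 (70.5%) on chromosome 13 with 6 of 24 (25.0%) on chromosome 4.

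Regions without any tag of the other strain were few on chromosome 4 and near the list share elsewhere. There were 51 in NOD (27.3%) against 34.9% of the list, and 20 in B6 against 37.8%. On chromosome 4 they were 10 of 79 NOD regions (12.7%) and 2 of 24 B6 regions (8.33%). The NOD shares were 35.1% on chromosome 2 and 41.2% on chromosome 13, and the B6 share on chromosome 13 was 38.6%. The centers of the NOD H3K4me3 members lay in introns in 92 cases, between genes in 79 and in exons in 16. Outside the clusters these counts were 5600, 4779 and 1511 of 11890 NOD regions. A gene start of any kind lay within 1 kb of 28 B6 H3K4me3 members (40.6%), against 18.8% of B6 regions outside the clusters. The other lists were closer to their outside shares, with 42 NOD H3K4me3 members (22.5% against 20.4%), 34 NOD H3K27ac members (28.6% against 25.7%) and 14 B6 H3K27ac members (23.7% against 18.7%).

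Both marks lay on the same stretch more often among members than in the lists as a whole. Of NOD H3K4me3 members, 66 (35.3%) overlapped a NOD H3K27ac region, against 5.81% of the whole list. The share was 52.6% on chromosome 2 (30 regions), 27.8% on chromosome 4 (22) and 27.5% on chromosome 13 (14). A B6 H3K27ac region was overlapped by 1 NOD H3K4me3 member (0.535%), against 0.892% outside the clusters. In B6, 10 H3K4me3 members (14.5%) overlapped a B6 H3K27ac region, against 3.63% of the list. Overlap with the other strain was also more frequent among B6 members, at 3 (4.35%) against 0.546% outside the clusters. Those 3 lay on chromosome 4, where 3 of the 24 B6 H3K4me3 members overlapped B6 H3K27ac. NOD H3K27ac members covered more of the clusters than B6 members did, and the part of region length in these overlaps was not tested.

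Wide H3K27ac domains made up most of that cover. Domains of at least 5 kb numbered 25 in NOD, with 403.8 kb in all, and 10 in B6, with 99.3 kb. They were 21.0% of NOD and 16.9% of B6 H3K27ac members, against 8.97% and 8.95% of regions outside the clusters. Of the NOD domains, 17 held NOD H3K4me3 regions, 46 regions in all, and 2 held a B6 one. All 7 NOD domains of chromosome 2 held NOD H3K4me3, as did 6 of 7 on chromosome 4 and 4 of 11 on chromosome 13. Of the B6 domains 3 held B6 H3K4me3 and 0 held NOD H3K4me3. Domains outside the clusters that hold H3K4me3 were not counted, so these counts have no comparison share. The super enhancer rule of the HOMER pipeline, a slope value of at least 1 on the curve of ranked scores, was met by 27 NOD members (22.7%) against 8.16% of the list and by 14 B6 members (23.7%) against 7.06%. In both strains super enhancers were thus a larger share of the members than of the list. The median domain had 38.8% unique 50-mers in NOD and 71.0% in B6.

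The score of an H3K27ac region is its own signal minus that of the other strain. The region with the highest NOD score in the genome was a member, chr2:177057555-177080385, with a score of 1045.4 over 22.8 kb, 869 bp from the start of the pseudogene Gm14421. It enclosed 3 NOD H3K4me3 regions with 2054 tags, the leading one of chromosome 2 among them, and 32.2% of its 50-mers were unique. The region ranked next, chr4:145431706-145447145, had a score of 1024.4 over 15.4 kb and enclosed 4 NOD H3K4me3 regions with 3284 tags, including the one with the most tags in the genome. Thus the same stretches led both NOD lists. The region chr2:177229306-177231624 near the pseudogene Gm14400 followed in place 6 with a score of 835.3, and chr4:145410339-145418840 at Gm42346 was in place 21 with 525.6.

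In B6 the leading domains lay in unique sequence on chromosome 13. The domain chr13:65205509-65218300 at Nlrp4f, a gene of the NLR family, had a score of 387.5 and 96.4% unique 50-mers, and ranked 7 in the B6 list. The domain chr13:63968845-63981115, 22.3 kb from the pseudogene Gm7695, had a score of 354.9 with 98.9% unique 50-mers and ranked 11. The B6 domains of at least 5 kb that came next, also on chromosome 13, were less unique. They scored 177.2 and 162.1 and had 54.0% and 45.8% unique 50-mers. NOD domains of this chromosome scored 323.6 at chr13:62499861-62511834 near the noncoding gene Gm21145 and 316.2 at chr13:66414796-66441622 over the C2H2 gene 2410141K09Rik. The B6 scores on the other chromosomes were lower, at most 93.0 near Vps13d (chr4:145200106-145208170) and 81.6 at a second start of Gm14393 (chr2:175134644-175146351).

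Repeats at the centers of the H3K27ac members were read from the annotation in the deposited lists. ERV1 elements, a class of endogenous retroviruses, held 15 NOD members (12.6%) against 3.30% of NOD regions outside the clusters, and 7 B6 members (11.9%) against 1.61%. ERVK elements held 19 NOD members (16.0%) against 11.2% and 6 B6 members (10.2%) against 7.79%. L1 elements held 13 NOD members (10.9%) against 4.69%. The ERV1 share was thus higher in the members of both strains, although the B6 counts are of 7 regions or fewer.

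**Figure D4:**
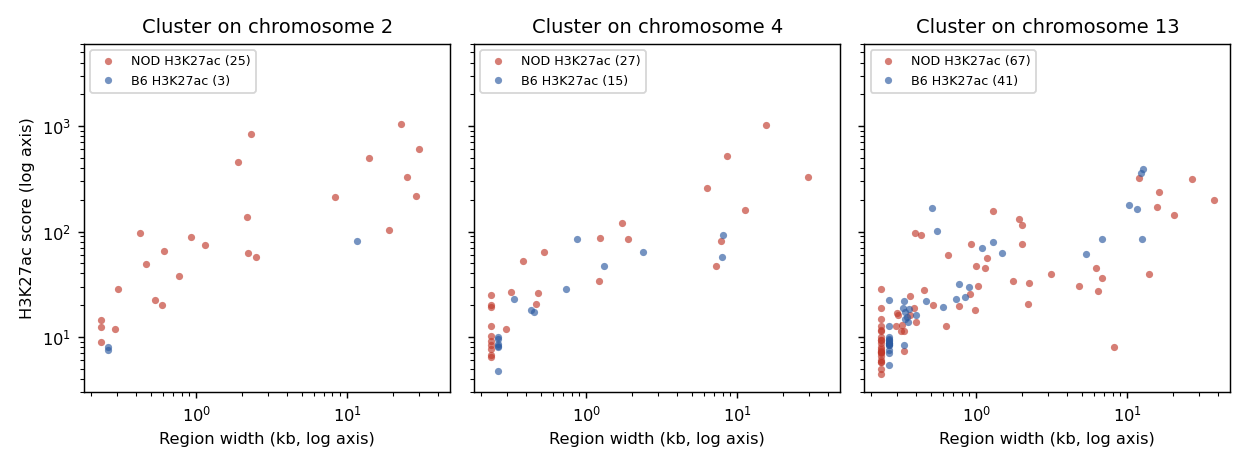
Width (x axis, kb, logarithmic) and score (y axis, logarithmic) of every H3K27ac member by cluster, NOD in red and B6 in blue. The highest NOD scores, 1045.4 and 1024.4, are on chromosomes 2 and 4, and on chromosome 13 the highest B6 score of 387.5 lies above the highest NOD score of 323.6.

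Gene starts were examined next, with a gene counted when a region lay within 1 kb of one of its starts. Among 53 genes of the clusters that RefSeq describes as zinc-finger genes, 14 had a NOD H3K4me3 region (26.4%, 16.4 to 39.6), against 8.54% of all protein-coding genes and 11.4% of the 623 zinc-finger genes elsewhere. A B6 H3K4me3 region was present at 7 (13.2%), against 5.29% of all genes and 6.90% of zinc-finger genes elsewhere. A NOD H3K27ac region was present at 6 (11.3%), against 6.9% of all genes and 12.5% of zinc-finger genes elsewhere. This share was thus not above that of zinc-finger genes elsewhere. A B6 H3K27ac region was present at 4 (7.55%), against 4.02% and 4.65%. The interval of the NOD H3K4me3 share lay above both of its comparison shares, and the other 3 shares rest on 7 genes or fewer. It did not do so when the region had to cover the start, which left 4 genes (7.55%, 2.97 to 17.9) against 4.01% of zinc-finger genes elsewhere. Chromosome 4 held 7 of the 14 genes among its 15.

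Many genes of the clusters carry only a provisional name, so genes were also taken by at least 3 C2H2 finger patterns in their RefSeq coding sequence, a list added after the data were seen. Of 97 such genes, 21 had a NOD H3K4me3 region (21.6%), 9 a B6 H3K4me3 region (9.28%), 17 a NOD H3K27ac region (17.5%) and 5 a B6 H3K27ac region (5.15%). Elsewhere, C2H2 genes had 11.8%, 8.80%, 11.5% and 6.43%. For H3K4me3, 19 of the 97 genes had a region of the NOD list alone, 7 of the B6 list alone and 2 of both lists, although tags of the other strain were present at many of them. Few genes were in both lists elsewhere too. Of 591 C2H2 genes elsewhere, 70 had a NOD region, 52 a B6 region and 4 both. Of all 21774 protein-coding genes, 1859 had a NOD region, 1151 a B6 region and 76 both. No region of any list was found at 58 genes. On chromosome 4, 11 of 19 C2H2 genes (57.9%) had a NOD H3K4me3 region, against 2 of 28 on chromosome 2, where 3 of the 57 NOD H3K4me3 regions lay within 1 kb of a coding gene start. The 72 genes with both a KRAB pattern and C2H2 fingers had 18 (25.0%), 5 (6.94%), 12 (16.7%) and 2 (2.78%) in the lists, in the same order, against 8.14%, 9.95%, 9.95% and 9.50% of such genes elsewhere. Both NOD shares were thus above and both B6 shares below those elsewhere, the latter on 5 genes or fewer. Of the 55 other protein-coding genes of the clusters, 0 had a NOD H3K4me3 region and 5 (9.09%) had a B6 one, against 8.36% and 5.17% of such genes elsewhere. The 2 gene groups are spread differently, since 37 of the 55 lie on chromosome 13, while chromosome 4 had 11 of the 21 C2H2 genes. On chromosome 13 alone, 8 of 50 C2H2 genes (16.0%) and 0 of 37 other genes had a NOD H3K4me3 region.

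**Figure D5:**
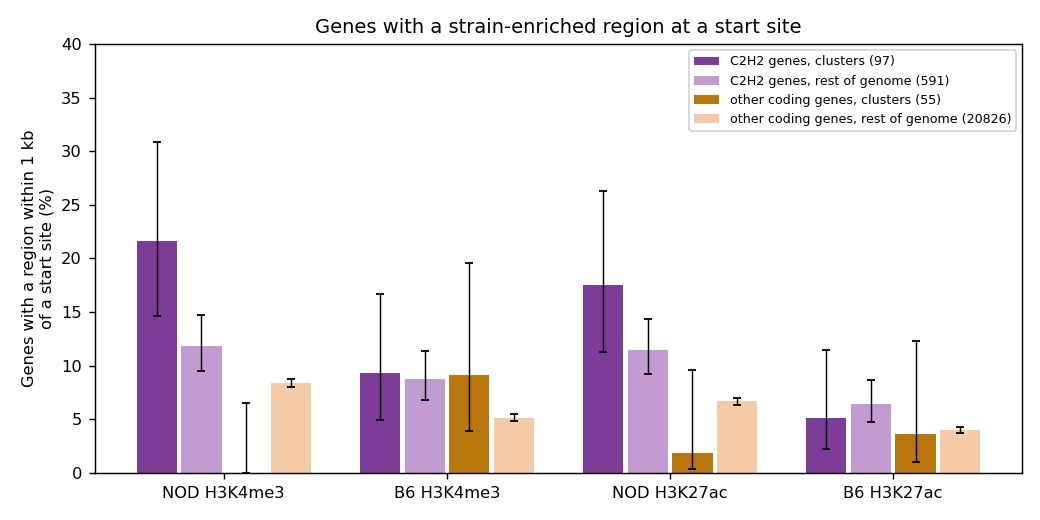
Percent of genes with a region of each list within 1 kb of a start site, for C2H2 genes and other protein-coding genes inside and outside the clusters, with bars from 0 and 95% Wilson intervals. The C2H2 genes of the clusters stand at 21.6% for NOD H3K4me3 and the other coding genes of the clusters at 0%, while for B6 H3K4me3 both are near 9%.

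Zinc-finger genes with both marks in a strain, or with H3K4me3 regions of both strains, were then taken singly. Near-identical copies make the source of their reads uncertain. Zfp970, whose start sequence is shared almost whole with Zfp966, had 831 NOD and 100 B6 H3K4me3 tags (5.40-fold, 4.39 to 6.72), and a NOD H3K27ac region with a score of 20.3. Only 31.7% of the 50-mers of its H3K4me3 region were unique, and Zfp966 had no region at its start. Zfp934, a KRAB and C2H2 gene on chromosome 13, had 170 NOD and 20 B6 tags (5.53-fold, 3.47 to 9.28), within a NOD H3K27ac domain of 20.3 kb with a score of 143.5.

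Zfp982, a KRAB and C2H2 gene on chromosome 4, was enriched in opposite strains at 2 of its starts. At chr4:147442879-147443379 there were 93 B6 and 34 NOD tags (4.21-fold in B6, 2.81 to 6.43). At chr4:147492302-147495165 there were 304 NOD and 19 B6 tags (10.4-fold in NOD, 6.55 to 17.5). From genome tracks rather than called regions, the study describes both marks as increased at Zfp982 in NOD cells. The NOD-side start had that direction for H3K4me3 and the B6-side start the opposite one. For H3K27ac, 0 NOD and 0 B6 regions lay within 1 kb of a start of Zfp982. The printed sequences show that the B6-side start is the one that is richer in CG and unlike other starts. Zfp759 also had both, a B6 region with 28 B6 and 9 NOD tags (fold 4.79, 2.20 to 11.5) and a NOD region with 18 NOD and 0 B6 tags, at least 3.90-fold higher in NOD against the floor of 3 tags, with an exact lower bound of 2.86.

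The zinc-finger genes named for both marks in B6 were on chromosome 13. Zfp874a, with a start that is wholly unique, had 160 B6 and 52 NOD tags (4.73-fold, 3.44 to 6.60), and a B6 H3K27ac region with a score of 8.37. Zfp729b, with 207 B6 tags as given above, had a B6 H3K27ac region with a score of 32.1. The score of Zfp874a was below the B6 median of 12.8 outside the clusters.

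The coding sequence list added further genes with both marks. Gm14393 on chromosome 2 had 697 NOD and 99 B6 H3K4me3 tags (4.58-fold, 3.70 to 5.71), and a NOD H3K27ac region with a score of 211.7 at the start whose sequence is printed above. The B6 H3K27ac region of this gene, with a score of 81.6, lay at its other start. Gm13212 on chromosome 4 had 949 NOD and 145 B6 tags (4.26-fold, 3.57 to 5.10), and a score of 87.5. On chromosome 13, 2410141K09Rik had 122 NOD and 8 B6 tags at one start (9.91-fold, 4.88 to 23.5), inside its H3K27ac domain of 26.8 kb.

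Rex2 was weaker and less certain. Beside the printed start, 21 NOD and 3 B6 tags gave a ratio of 4.55 (1.36 to 23.8), and 7.69% of the 50-mers of that region were unique. At another start there were 31 NOD and 0 B6 tags, at least 6.72-fold higher in NOD against the same floor, with an exact lower bound of 5.15. Its near copy Zfp600 had no region within 1 kb of the printed start. Among genes chosen after their values were seen, the KRAB-cluster gene Zfp985 of chromosome 4 had 814 NOD tags and Zfp980 had 219.

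Of genes named in earlier accounts of these cells, the noncoding gene Gm14403 on chromosome 2 had 1321 NOD and 132 B6 tags at chr2:177498093-177500593 (6.51-fold, 5.44 to 7.84), and a NOD H3K27ac score of 499.5. The C2H2 gene Gm14410 lay under a NOD H3K27ac domain, chr2:177188681-177207687, with a score of 103.6 and 14.6% unique 50-mers. Gm14296 had no region within 1 kb. Smarca5-ps was not matched in the gene table and is not analysed here.

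The partners of KRAB zinc-finger proteins were examined for strain differences of their own. Of 16 such genes, a NOD H3K4me3 region lay at 3, namely Trim28, the HP1 gene Cbx5 and Resf1, a repressor of retroelements. A B6 H3K4me3 region lay at 1, Uhrf1, which directs maintenance DNA methylation. A NOD H3K27ac region lay at the deacetylase genes Hdac1 and Hdac2, and no gene had a B6 one. Of 8 ES cell markers, Pou5f1, Sox2 and Zfp42 had a NOD H3K4me3 region, Esrrb a B6 H3K4me3 region and Dppa3 a NOD H3K27ac region. From genome tracks rather than called regions, the study describes both marks at the Pou5f1 promoter as alike between the strains. With 8.54%, 5.29%, 6.9% and 4.02% of all protein-coding genes in the lists, nothing is read from counts this small. These lists of strain differences cannot show whether the other markers were unmarked or alike.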

How the data were processed

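Chromatin of NOD and B6 ES cells was sequenced as single-end reads of 50 bp, with 1 library per strain for each mark. The study's methods give mapping to mm10 with bowtie2 and region calling with HOMER. The submitters' processing notes list CASAVA 1.8.2, STAR 2.2.0c, HOMER and mm9. The H3K27ac headers name mm10, and mm10 positions were used for all lists. The H3K4me3 headers name no build, so for those lists mm10 is an assumption. All regions end within the chromosome lengths of GRCm38.p6, which does not by itself identify the build. How reads with several positions were treated is not given in the sources used here.

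For H3K4me3, per the file headers, regions were called with the histone style of HOMER, peaks of 500 bp, at least 8 tags, and 4-fold more tags than in the other strain at a Poisson threshold of 1.00e-04. The B6 list holds deposited tag counts as whole numbers. The NOD list holds a deposited signal scaled to the B6 library. Multiplying by the ratio of the library totals gave whole NOD tags, and small placeholder values of the other strain were treated as 0. The deposited H3K27ac score is own signal less other-strain signal, and its scale is not given in the sources used here. The fold and p-value columns of the authors were not used.

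Shares have 95% Wilson intervals, tag folds and region densities have exact Clopper-Pearson intervals on their counts, and a floor of 3 tags stands in for 0 tags of the other strain. No test was made, since there is 1 library per strain and mark. Unique 50-mers were counted on both strands of the primary chromosomes, at steps of 5 bp in regions, 100 bp in clusters and 2000 bp elsewhere in the genome. Start sequences were aligned globally with match, mismatch and gap scores of 1, -1 and -2. Overlap meant at least 1 shared bp. Python 3.11.15 with numpy 2.4.6, pandas 2.3.3, scipy 1.17.1, numba 0.67.0 and matplotlib 3.10.9 was used, and the functions were tested on simulated data.

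Regions named singly were the 2 with the most own tags or the highest score for each cluster and list, then zinc-finger genes with both marks in a strain or H3K4me3 regions of both strains, then genes of the clusters named in earlier accounts. A zinc-finger gene was a protein-coding gene with those words in its RefSeq description. The C2H2 list required at least 3 matches of the pattern with 2 to 4 residues between the cysteines, 12 to the first histidine and 3 to 5 between the histidines in the translated coding sequence. The members, lists and rules were chosen with earlier results of these data known.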

Additional observations from a re-analysis of the deposited data

How the results depend on the processing

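Of 99 alternative values for 22 results, 67 stayed within the counting interval or 1.5 times the count, 27 moved beyond it and 5 NOD shares turned to a B6 majority, each with a value below 50%. Leaving out a library was not possible with 1 library per strain and mark. No paired analysis was possible because the labels carry no replicate numbers. With bounds moved inward by 500 kb, the chromosome 2 NOD share of H3K4me3 was 100%. With regions of at least 90% unique 50-mers, an alternative added after the data were seen, it was 0% there (1 region) and 62.7% over the clusters, and for H3K27ac 43.2% on chromosome 13 and 47.3% over the clusters. The next alternative required at least 20 own tags, with NOD tags scaled down to the B6 library, so NOD regions needed more whole tags. The H3K4me3 share was then 42.1% on chromosome 13, and densities were 4.12 (NOD) and 2.58 (B6) times those outside. With a fold of at least 8 or a slope value of at least 1, the share was 34.0% on chromosome 13 and 64.2% over the clusters for H3K4me3 and 50% on chromosome 13 for H3K27ac, and densities were 3.87 (NOD H3K4me3), 10.7 (NOD H3K27ac) and 6.96 (B6 H3K27ac). By covered length, the share was 78.2% for H3K4me3, and for H3K27ac 80.1% on chromosome 4, 70.7% on chromosome 13 and 79.3% over the clusters, and ratios were 4.35 (NOD H3K4me3), 10.7 (NOD H3K27ac) and 3.11 (B6 H3K27ac). With regions that cover the start, 4 NOD and 3 B6 H3K4me3 genes and 2 B6 H3K27ac genes remained in the count. For NOD H3K27ac the count was 12 within 5 kb and 17 with the added C2H2 list. With 36-mers the unique share was 55.3% (NOD H3K4me3) and 30.0% (NOD H3K27ac). With 100-mers it was 89.1%, 89.3%, 63.0% and 85.1% for NOD and B6 H3K4me3 and NOD and B6 H3K27ac. With the floor of 3 unscaled tags, B6 regions without NOD tags reached a fold of 8 at fewer own tags than NOD regions without B6 tags. The cause of these shifts was not tested. The B6 H3K4me3 library was the shallower one, and the part of depth in the region counts was not tested. Low tag numbers leave wide intervals.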
